A study of Mus musculus with 4 samples.

Results

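Gata2 Mfsd2b early erythroid-megakaryocyte progenitors are here the KIT-positive bone marrow cells of mice in which both Gata2 and Mfsd2b were detected, with little sign of a later or earlier fate. A cell was a member if it had at least 3070 unique molecular identifiers (UMIs, each standing for 1 captured mRNA molecule), at least 1 UMI of Gata2 and 1 of Mfsd2b, and none of Pf4, Ms4a2 or Gzmb. It also had to show fewer than 3 of 6 erythroid genes (Klf1, Ermap, Epor, Aqp1, Rhag, Tspo2) and fewer than 3 of 8 stem cell genes (Hlf, Mecom, Procr, Ly6a, Pdzk1ip1, Fgd5, Hoxb5, Slamf1). Of 11764 cells, 543 were members, 341 in the PBS control and 202 in the B-ALL environment. The members were thus chosen by the measured UMIs of these 19 genes, whose values below are a description only.

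The cells came from Wt CD45.1 mice that were given either PBS or 150000 tumor cells through the tail vein, and were collected 3 weeks later. The tumor cells, LN768, were taken from a lymph node of 1 leukemic Cd45.2+/+ Ebf1+/- Pax5+/- mouse, so the B-ALL (B cell acute lymphoblastic leukemia) environment rests on 1 leukemia. In both groups the profiled cells were host cells, sorted as KIT+Lin-CD45.2-CD45.1+, and libraries were made with the 10x Chromium 3' kit, which counts the 3' ends of transcripts. In all 4 samples are labelled, 2 per group, but the cells carry only a group prefix, so each group was treated as 1 sample. No test between groups was possible and no p-value is printed. The intervals, at 95%, cover counting error only and not the variation between mice.

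Blood formation passes through progenitors that can still give both red cells and platelets. Gata2 is a transcription factor of stem and early progenitor cells that is replaced at many sites by Gata1 as erythroid and megakaryocytic cells mature. Mfsd2b exports sphingosine 1-phosphate from red cells and platelets. Apoe is a lipid carrier, St8sia6 a sialyltransferase and F2r the thrombin receptor PAR1, and these 3 genes were given as further markers of the population. In the mm10 assembly, Gata2 lies on chromosome 6 (88193891 to 88207032), Mfsd2b on chromosome 12 (4862438 to 4874359), Apoe on chromosome 7 (19696244 to 19701310), St8sia6 on chromosome 2 (13651018 to 13794734) and F2r on chromosome 13 (95601780 to 95618466).

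The whole data set held 68391214 UMIs in the PBS control and 76059014 in the B-ALL environment, over 5882 cells each. The members gave 2514896 and 2217919 UMIs. They differed in depth: the median member had 5701 UMIs (3286 to 27206) in the PBS control and 9597 (3162 to 36812) in the B-ALL environment, and the median number of genes detected was 2783 and 3757.5. The median share of UMIs from mitochondrially encoded genes was 3.17% and 5.33%. Of all cells, 190 fell under 3070 UMIs, each from the B-ALL environment. The groups shared 18 barcode sequences, carried by 3 members.

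Members made up 5.80% of PBS control cells with enough UMIs (341 of 5882, 95% exact binomial interval 5.21% to 6.43%) and 3.55% in the B-ALL environment (202 of 5692, 3.08% to 4.06%). The ratio of the shares, B-ALL environment over PBS control, was 0.612 (0.512 to 0.731), and 0.608 without the 3 members whose barcode occurred in both groups. The size of this ratio depended on how cells of unequal depth were treated. It was 0.422 (0.344 to 0.514) when every cell was thinned at random to 3070 UMIs before the rule was applied, and 0.861 (0.705 to 1.05), with an interval that includes 1, when cells needed 5000 UMIs. The limit on erythroid and stem cell genes also counted, since the ratio was 0.390 (0.346 to 0.438) without it. Over the same cells, the ratio was 0.143 for cells with at least 3 of the 6 erythroid genes (erythroid cells, 1054 and 146), 1.68 for cells with Pf4 and Itga2b (megakaryocyte cells, 412 and 670) and 5.58 for cells with at least 3 of the 8 stem cell genes (stem cells, 299 and 1614). The depth gap between the groups, and the KIT gate of the sort, stand beside these shares, and their part was not tested.

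On the map of cells deposited by the authors, most members lay in 1 region: 82.4% in the PBS control and 86.1% in the B-ALL environment had a first coordinate over 2, against 40.1% and 32.4% of all cells. Among the 30 nearest neighbours of a member, 21.4% (PBS control) and 17.3% (B-ALL environment) were also members, against 4.62% of all cells. Erythroid cells supplied 15.5% and 23.2% of neighbours (10.2% of all cells) and megakaryocyte cells 11.9% and 13.4% (9.20%), while stem cells supplied only 5.77% and 5.64% (16.3%). The map was built from the same expression values, so this describes the cells and does not test them.

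**Figure D1:**
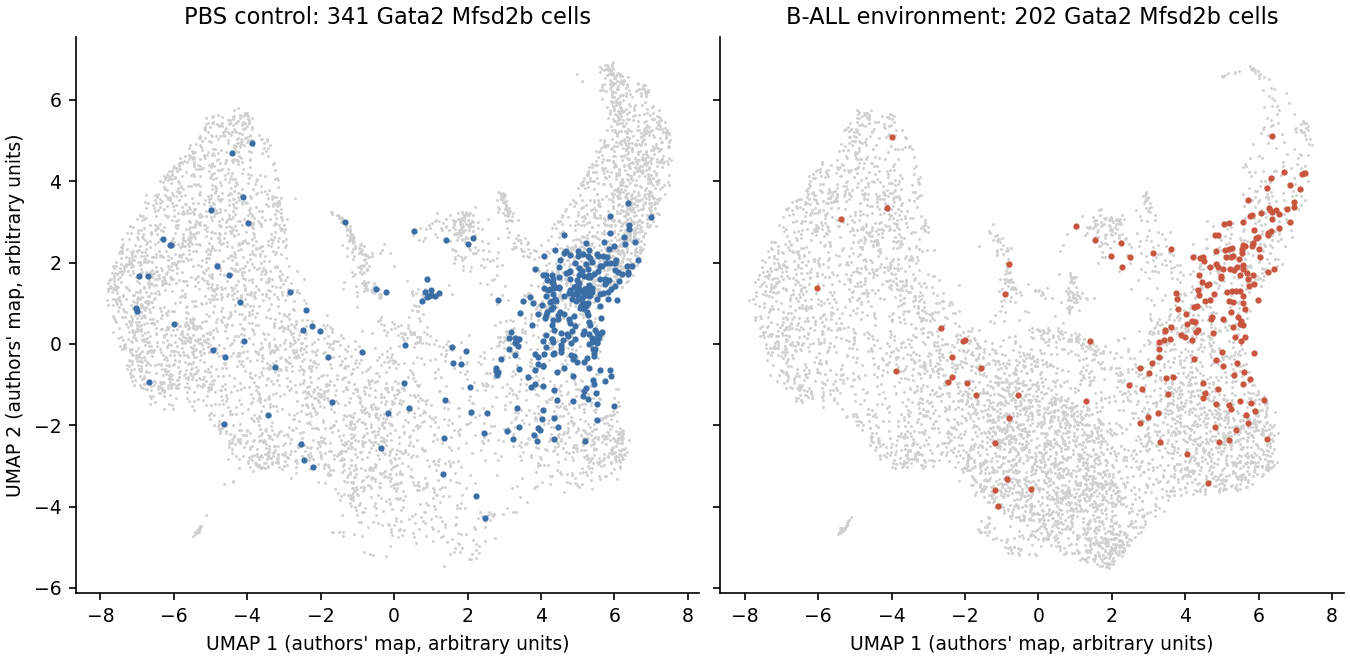
The authors' UMAP (arbitrary units on both axes) with all cells of a group in grey and the Gata2 Mfsd2b cells coloured, 341 in the PBS control and 202 in the B-ALL environment. In both panels most members lie to the right, with 82.4% and 86.1% of them at a first coordinate over 2.

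Members had few UMIs of the genes that chose them. In the PBS control 76 members had 1 Gata2 UMI and 190 had 3 or more, with a highest count of 20. Among B-ALL environment members these numbers were 41, 136 and 44. Mfsd2b was at 1 UMI in 178 of 341 and 112 of 202 members. Summed over members and scaled to CPM (per-million counts, after TMM scaling of library size), Gata2 was at 459 CPM (434 to 486) in the PBS control and 428 (402 to 456) in the B-ALL environment. Mfsd2b was at 230 (212 to 249) and 165 (149 to 183). Klf1, a master regulator of erythroid genes, was at 60.5 and 53.5 CPM. The water channel gene Aqp1 was at 81.5 and 27.0, Tspo2 at 73.6 and 17.7, and Ermap at 21.8 and 2.21. The stem cell regulator Mecom was at 10.5 and 19.4. The make-up of the members differed accordingly: 43.1% of PBS control members and 22.3% in the B-ALL environment showed 2 erythroid genes, the most the rule allows, while 18.8% and 28.7% showed 2 stem cell genes.

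Cells just outside the limits of the rule differed from those just inside in several genes. PBS control members with exactly 2 erythroid genes (147 cells) had 920 unscaled CPM of Car1 (its share of all UMIs of these cells, without TMM scaling), and the 167 cells with exactly 3 had 1823. For Apoe these values were 3285 and 2797, and for Gata1 113 and 149. In the B-ALL environment Car1 was at 934 with 2 erythroid genes (45 cells) and 1251 with 3 (25 cells). At the stem cell limit, PBS control members with exactly 2 stem cell genes (64 cells) had 237 of Car1, 55.5 of St8sia6 and 2211 of Apoe, and the 16 cells with exactly 3 had 14.3, 0 and 1006. Cells that failed only because they had a UMI of Ms4a2, a basophil and mast cell receptor gene, numbered 92 and 56, with Apoe at 3515 and 1716. Those that failed only by a UMI of Pf4, a platelet chemokine gene, numbered 209 and 220, with Itga2b at 323 and 221.

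Of the 3 further markers, Apoe and St8sia6 were higher in members than in the compared populations, and F2r was shared with megakaryocyte cells. Apoe was at 2495 CPM in PBS control members, 1791 in erythroid, 1337 in megakaryocyte and 446 in stem cells. In the B-ALL environment it was at 1205, 666, 533 and 355, so the order was kept at lower levels. St8sia6 was at 88.2 CPM in PBS control members against 33.4 in erythroid, 9.75 in megakaryocyte and 0.343 in stem cells (1 UMI). Under B-ALL it was at 47.7 in members and 43.5 in erythroid cells, a ratio of 1.10 (0.837 to 1.44) whose interval includes 1. F2r was at 142 CPM in PBS control members and 162 in megakaryocyte cells (ratio 0.876, 0.771 to 0.995), and at 177 and 170 in the B-ALL environment (1.04, 0.932 to 1.16). Erythroid cells had 50.7 and 89.6 CPM of F2r. Since free RNA gives droplets some UMIs of foreign genes, neutrophil progenitors (cells with Cebpe and without Gata2, median 15426 and 19703 UMIs) served as a reference: F2r had a UMI in 58.4% and 68.3% of members but in 2.08% and 4.53% of neutrophil progenitors. For St8sia6 the shares were 41.3% and 27.7% against 1.12% and 0.604%. Apoe, at 98.2% and 98.0% of members, was also found in 56.0% and 58.3% of neutrophil progenitors.

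**Figure D2:**
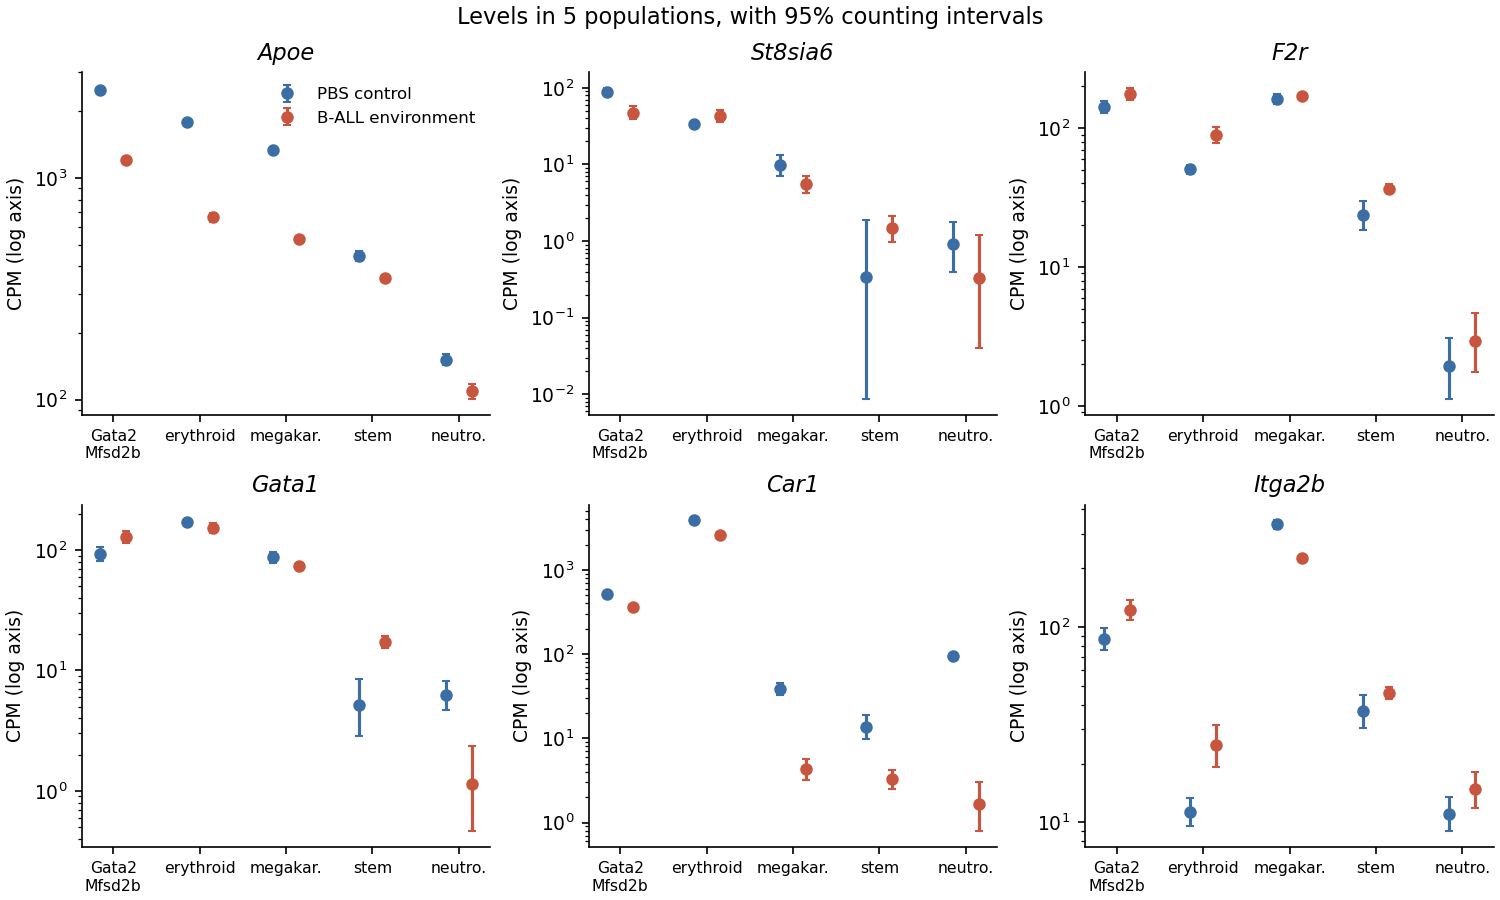
CPM on a log axis of the 3 further markers (top) and of an erythroid-megakaryocyte, an erythroid and a megakaryocyte gene (bottom) in 5 populations. Points are sums over the cells of a group and bars are 95% counting intervals. Apoe is highest in the Gata2 Mfsd2b cells of each group, F2r is as high in megakaryocyte cells, and Car1 lies between the erythroid and megakaryocyte cells. Itga2b is high in megakaryocyte cells by their choice.

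Members held transcripts of erythroid and of megakaryocyte genes. Gata1 was at 92.7 CPM in PBS control members, near the 87.0 of megakaryocyte cells and below the 170 of erythroid cells. Car1, an early erythroid carbonic anhydrase gene, was at 512 CPM against 3875 in erythroid and 38.8 in megakaryocyte cells. Itga2b, the integrin subunit CD41, was at 87.1 against 11.3 in erythroid and 37.1 in stem cells. Megakaryocyte cells, which were chosen by this gene, are not compared for it. In the B-ALL environment Gata1 was at 129 CPM in members and 73.5 in megakaryocyte cells (ratio 1.75, 1.53 to 2.01). Erythroid cells there had 153 CPM of Gata1 (0.846, 0.726 to 0.985). Car1 was found in 58.1% of PBS control members and 35.1% in the B-ALL environment, against 14.7% and 3.02% of the deeper neutrophil progenitors, and Itga2b in 41.1% and 56.9% against 12.5% and 19.0%. Both genes had a UMI in 63 of 341 PBS control members, 135 members had Car1 only, 77 had Itga2b only and 66 had neither. The B-ALL environment counts were 33, 38, 82 and 49 of 202. Itga2b was thus found in 31.8% of PBS control members with Car1 and 53.8% of those without, and in 46.5% and 62.6% in the B-ALL environment. With each member thinned to 3070 UMIs these shares were 18.6% and 33.3%, and 18.8% and 39.9%.

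Across all genes compared (8082 at a mean of 10 CPM or more in each comparison), 12 were higher in members than in erythroid, megakaryocyte and stem cells by over 1.5-fold in both groups, and 2 were lower. The background share of genes past that fold was 12.7% higher and 12.2% lower against PBS control erythroid cells, 6.01% and 6.21% against megakaryocyte cells, and 6.49% and 7.76% against stem cells. The corresponding shares in the B-ALL environment were 12.1% and 9.15%, 4.98% and 4.21%, and 5.18% and 7.92%. The 12 genes were Stx3, Gm17590, Rapgef3, E430002N23Rik, Slc18a2, Fam117a, Lpcat2, Vim, Fam189b, Ddah2, Rnase6 and I730030J21Rik. Slc18a2, a vesicular monoamine transporter gene, was at 152 CPM in PBS control members against 45.0 in erythroid, 83.7 in megakaryocyte and 87.5 in stem cells. In the B-ALL environment it was at 145 against 38.8, 79.5 and 78.3. Vim, the intermediate filament vimentin, was at 782 against 270, 233 and 418, and at 594 against 374, 184 and 348. Rapgef3, a cAMP-activated exchange factor for Rap GTPases, was at 37.9 against 14.3, 6.90 and 7.21, and at 17.7 against 9.87, 2.57 and 3.05. The ribonuclease gene Rnase6 was at 69.8 against 25.7, 31.9 and 45.6 in the PBS control. Specc1 and Map3k10 were the 2 lower genes, with Specc1 at 9.39 CPM against 41.0, 16.4 and 23.3 in the PBS control. Outside these genes, the mast cell protease gene Cpa3 was at 161 against 27.7, 116 and 102 in the PBS control. Its B-ALL environment values were 106 against 11.7, 20.5 and 15.8. Neutrophil progenitors had 99.3 CPM of Cpa3 in the PBS control and 73.0 in the B-ALL environment. Cpa3 had a UMI in 33.4% and 27.2% of members, and in 30.2% and 25.4% of the deeper neutrophil progenitors. With cells thinned to equal UMIs these shares were 22.3% and 15.3% of members, and 14.2% and 13.3% of neutrophil progenitors. The part of free RNA in the Cpa3 values was not tested. The 15 basophil and mast cell genes summed to 2082 against 1128, 1799 and 1791, and to 2088 against 1041, 1615 and 1630. Their sum was higher in neutrophil progenitors, at 3484 and 3768, so it does not set the members apart.

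The number of erythroid genes detected ordered other genes that the rule did not use. Car1 was at 142, 460 and 920 unscaled CPM in PBS control members with 0, 1 and 2 of the 6 genes, and at 59.2, 318 and 934 in the B-ALL environment. Blvrb, biliverdin reductase B, went from 119 to 351 and from 63.8 to 173 between 0 and 2 genes. In the opposite direction, the progenitor antigen gene Cd34 was at 346, 178 and 82.0 in the PBS control and at 297, 87.4 and 57.5 in the B-ALL environment. The mast cell protease gene Cpa3 was at 336, 129 and 71.8, and at 214, 45.0 and 27.8. Gata1 was lowest in members with 0 erythroid genes (53.8 against 125 and 113 in the PBS control, 104 against 147 and 154 in the B-ALL environment).

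**Figure D3:**
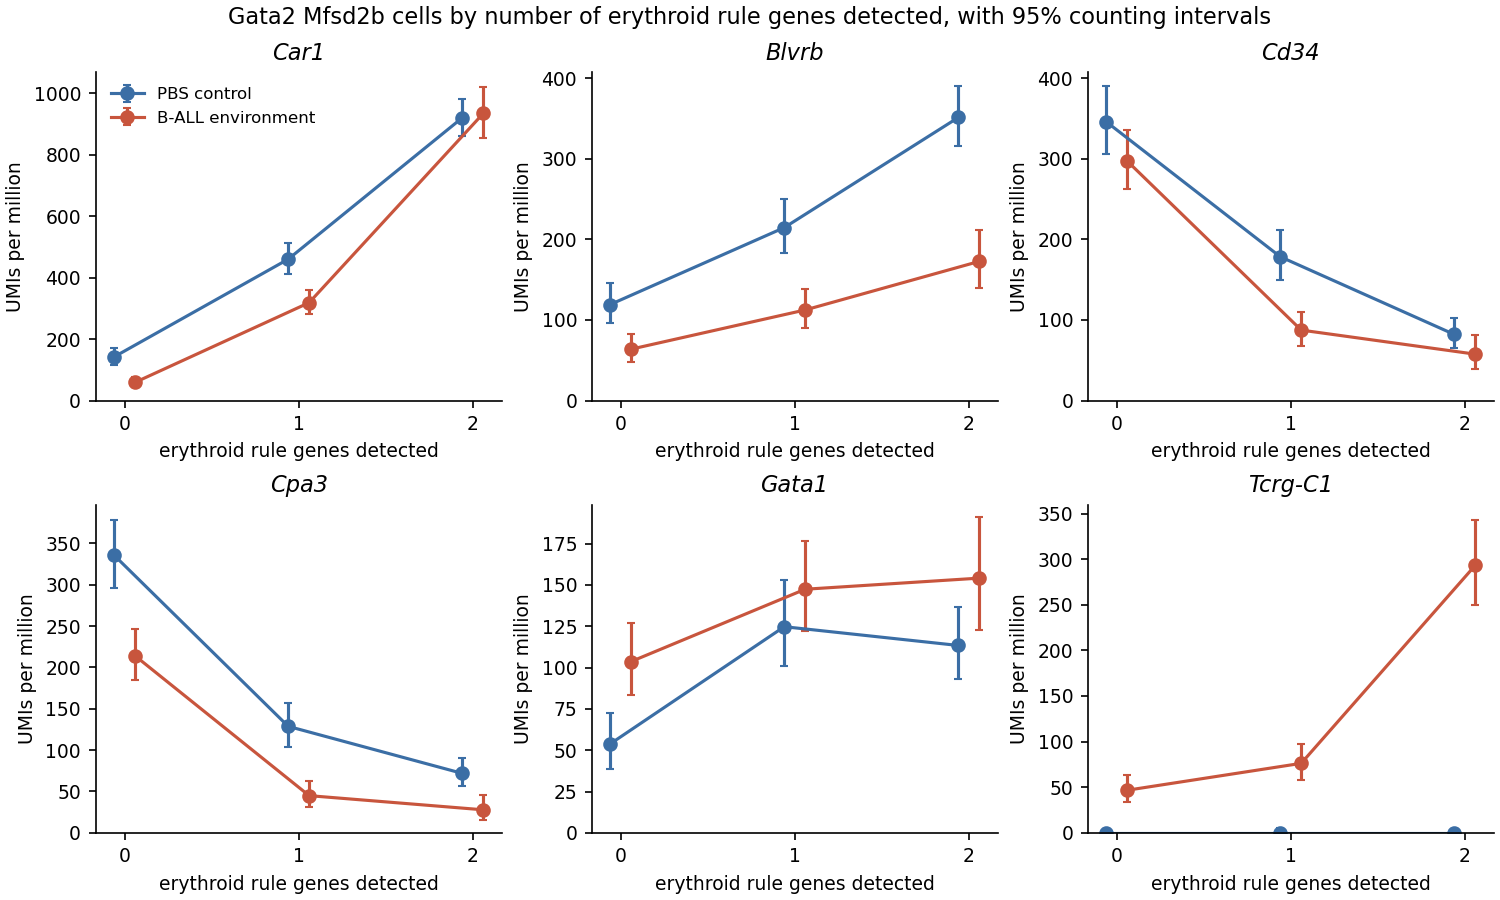
Unscaled CPM in the Gata2 Mfsd2b cells that showed 0, 1 or 2 of the 6 erythroid genes of the rule, with 95% counting intervals. Car1 and Blvrb climb and Cd34 and Cpa3 decline from 0 to 2 genes in both groups, and Tcrg-C1, with no UMI in the PBS control, reaches 293 in the B-ALL environment.

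Between the groups, 8733 genes outside the rule had a mean of at least 10 CPM. Of these, 606 (6.94%) were higher and 579 (6.63%) lower by over 1.5-fold in the B-ALL environment, with a median log2 fold of 0.03 over all of them. Higher genes were 51.1% of those past the fold after TMM scaling, 40.9% (490 higher, 708 lower) when scaled by total UMIs and 44.3% (514 and 645) by DESeq2 size factors. By the same fold, 4.71% and 5.71% of genes were higher and lower in erythroid cells, 4.19% and 4.91% in megakaryocyte cells, 4.44% and 3.47% in stem cells and 2.05% and 2.41% in neutrophil progenitors. The number is a count of sizes and not of tested differences. The populations also differ in cells and in summed UMIs, and smaller sums let more genes pass the fold by counting error. These shares therefore do not rank the populations by the size of their change.

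The 12 highest folds were of Tcrg-C1, Socs2, Ehd3, Homer2, Serpina3g, Serpina3f, Ltb, Pim2, Tnip3, Cish, Fcer1a and Slfn2. Tcrg-C1, which encodes a constant region of the T cell receptor gamma chain, had 0 UMIs in 341 PBS control members, which allows a share of up to 0.880% of cells with a UMI, and 260 UMIs in 62 of 202 members (30.7%) of the B-ALL environment. Its level of 115 CPM (101 to 130) was at least 102-fold higher, taking 3 UMIs as the limit for the PBS control sum. It was at 46.7, 76.2 and 293 unscaled CPM in members with 0, 1 and 2 erythroid genes. Car1 was found in 71.0% of the members with Tcrg-C1 and in 19.3% of those without. Erythroid cells of the B-ALL environment had 283 CPM, megakaryocyte cells 4.88 and stem cells 2.53, and PBS control erythroid cells had 0.692. The 4 genes of the T and NK cell list summed to 365 and 367 CPM, nearly all from Nkg7 (364 and 358 CPM). The other genes of that list were rare. Trbc2 was at 0 in PBS control members but not in the B-ALL environment, the group with Tcrg-C1. Klrd1 was at 0 in the B-ALL environment only.

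Serpina3g, an intracellular protease inhibitor induced by interferon gamma and NF-kB, went from 52.6 CPM (44.2 to 62.0) to 784 (748 to 821), a fold of 14.9 (12.5 to 17.8). It was found in 84 of 341 and in 194 of 202 members, and in 11.1% and 80.7% after thinning to 3070 UMIs. In neutrophil progenitors it was found in 23.7% and 68.0%, or 5.76% and 26.3% after thinning. Its log2 fold was 3.90 (3.65 to 4.16) in members, 6.63 in erythroid, 2.14 (2.01 to 2.26) in megakaryocyte and 1.97 (1.81 to 2.15) in stem cells. The neighbouring paralog Serpina3f went from 1.88 to 25.2 CPM, and reads of near-identical stretches could be assigned to either gene. Ifitm1, an interferon-induced membrane protein gene, was at 431 and 1964 CPM, and at 202 of 341 and 200 of 202 members. Its log2 fold of 2.19 in members stood beside 2.32 in erythroid, 2.90 in megakaryocyte, 2.73 in stem cells and 2.91 in neutrophil progenitors.

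Socs2, Cish and Pim2, of a list of cytokine feedback inhibitors, were among the highest folds. STAT transcription factors switch on some genes of this list, which also holds Pim kinase, Pias, phosphatase and other genes. Of 16 measured genes, 5 were higher past 1.5-fold and none lower (6.94% and 6.63% of all genes), and the median log2 fold was 0.34. Socs2 had 1 UMI in PBS control members and 53 in the B-ALL environment (40 of 202 members), a ratio of 62.4 with an interval from 10.7 to 2510. Cish went from 4.88 to 35.8 CPM, Socs1 from 4.13 to 24.3, and the kinase genes Pim2 from 4.13 to 32.7 and Pim1 from 210 to 525. Cish showed similar log2 folds in members (2.87, 2.02 to 3.84), erythroid (3.11), megakaryocyte (3.22) and stem cells (3.15). The JAK and STAT genes themselves were mostly lower: 0 of 13 were higher, 3 were lower past 1.5-fold (Irf9, Stat5b, Tyk2) and the median was -0.30. Stat5b was at 82.2 and 52.2 CPM.

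STAT proteins bind the motif TTCNNNGAA, which reads the same on both strands. Promoter windows (250 bases before to 50 after a RefSeq start, GRCm38.p6) were found for 10 of the 12 genes with the highest folds, and 4 of them held the motif: Serpina3g, Serpina3f, Ltb and Cish. Of all 32851 promoter windows, 8.30% held it. That share is of windows and not of genes, and some genes, such as Serpina3f and Homer2, had 2 windows. Serpina3g and Serpina3f are neighbouring paralogs with similar letters around the motif, so their matches do not count as separate cases. Among the 5 genes of the feedback inhibitor list past 1.5-fold, 4 had a window and 1 held it. Socs3 and Bcl6, of the same list but not higher past 1.5-fold, also held the motif. The stretches around the matches are shown, 5′ to 3′ on the plus strand, with the motif in capitals, because these 4 of the 12 genes hold it. They are chr12:104236054-104236176, chr12:104214363-104214491, chr17:35194275-35194403 and chr9:107296599-107296688.
Serpina3g: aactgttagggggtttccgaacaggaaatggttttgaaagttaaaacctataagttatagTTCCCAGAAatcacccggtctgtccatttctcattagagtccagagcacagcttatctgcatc
Serpina3f: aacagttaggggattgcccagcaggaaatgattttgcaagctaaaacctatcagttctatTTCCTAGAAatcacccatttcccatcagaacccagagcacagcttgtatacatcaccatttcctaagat
Ltb: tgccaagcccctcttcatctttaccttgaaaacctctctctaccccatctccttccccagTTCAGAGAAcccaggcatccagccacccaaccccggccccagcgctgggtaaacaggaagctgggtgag
Cish: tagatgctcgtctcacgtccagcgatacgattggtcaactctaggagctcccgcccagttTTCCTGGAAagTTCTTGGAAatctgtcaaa
The first base of the match lay at -33 from the start in Serpina3g, at -121 and -172 in Serpina3f and Ltb, and at +1 and +12 in Cish, which had 2 matches. A match describes these letters and does not show that a factor was bound.

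Further genes with the highest folds were Ehd3, Homer2, Ltb, Tnip3, Fcer1a and Slfn2. Ehd3, an endocytic recycling gene, went from 3.38 CPM (9 members) to 74.2 (78 members). Its log2 fold was 4.46 in members and 4.93 in erythroid cells, against 1.30 in megakaryocyte cells, where the PBS control already had 49.7 CPM. Ltb, lymphotoxin beta, went from 8.26 to 77.3 and Slfn2 from 6.76 to 43.3. Fcer1a, a basophil and mast cell marker, had a log2 fold of 2.85. Of 8 measured basophil and mast cell genes, 1 was higher and 4 were lower (6.94% and 6.63% of all genes). Homer2 had 3 UMIs in the PBS control and 53 in the B-ALL environment, 45.3% of them in 5 members. Its log2 fold of 4.38 was 1.29 with cells thinned before the rule was applied, the value that equal UMI counts in both groups give. It was 0.50, under 1.5-fold, with Gata2 and Mfsd2b at 2 UMIs or more.

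**Figure D4:**
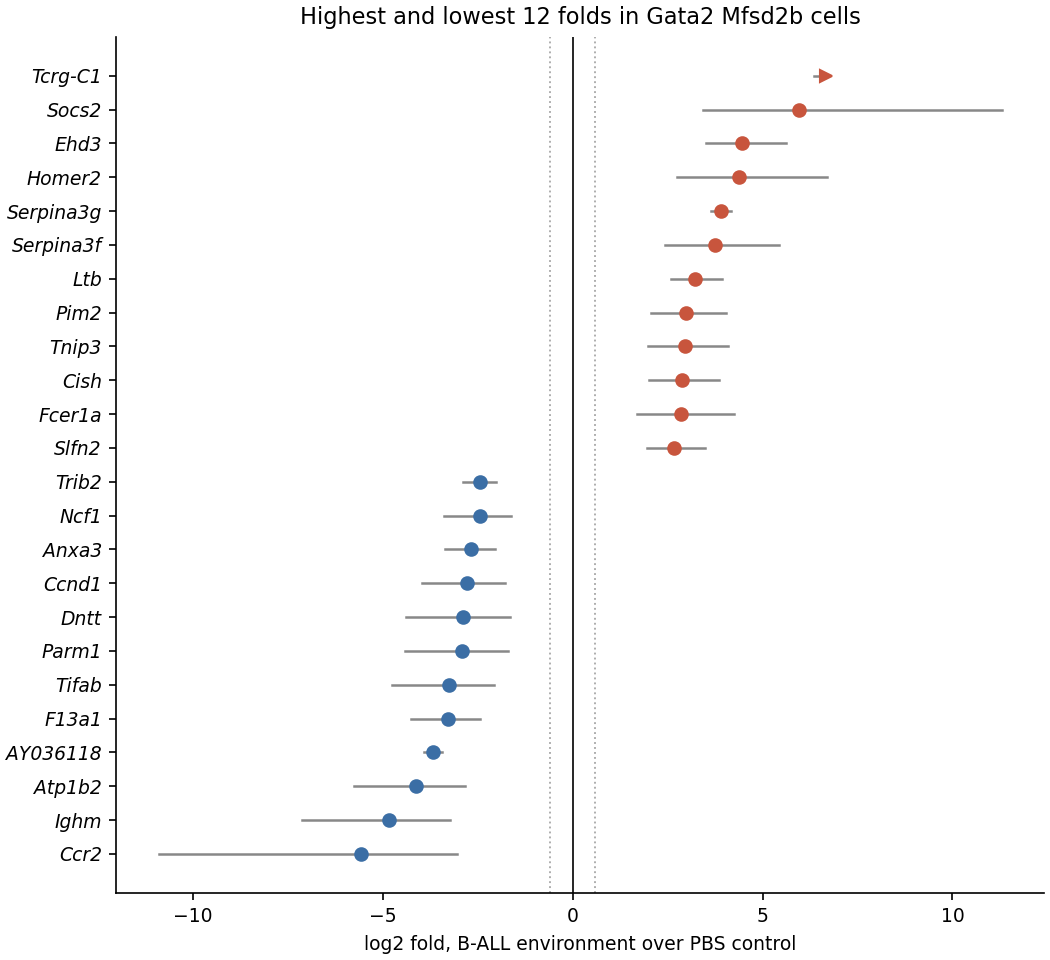
Log2 fold of the 12 highest and 12 lowest genes in the Gata2 Mfsd2b cells, B-ALL environment over PBS control, with 95% counting intervals. The dotted lines mark 1.5-fold, and the triangle of Tcrg-C1 is a lower bound because the PBS control had no UMI.

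Genes of the NF-kB response were higher in members of the B-ALL environment. Of 19 measured, 8 were higher past 1.5-fold and 1 was lower (Tnfaip2), against 6.94% and 6.63% of all genes. The median log2 fold was 0.53. Nfkbia, the inhibitor that NF-kB itself induces, went from 77.7 to 266 CPM (log2 1.77, 1.54 to 2.01). Relb went from 3.75 to 23.4 and Nfkb2 from 11.3 to 24.3. Nfkbia had a log2 fold of 2.44 in erythroid cells, 0.73 in megakaryocyte and 0.56 in stem cells, and of -0.36 in neutrophil progenitors. The list median was 0.89 in erythroid, 0.31 in megakaryocyte and 0.29 in stem cells. Interferon genes as lists were near the median of all genes. Of 20 type I interferon response genes 2 were higher (Ifitm1, Ifitm3) and 1 lower (Irf9), with a median of 0.03. Of 25 interferon gamma and MHC class I genes 4 were higher, among them Serpina3g, Serpina3f and Socs1, and 2 lower, with a median of -0.02. Irf8 was at 73.6 and 18.1 CPM.

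Megakaryocyte and platelet genes were higher as a group while erythroid genes were mixed. Of 18 measured megakaryocyte genes, 7 were higher past 1.5-fold and none lower (background 6.94% and 6.63%), with a median log2 fold of 0.48. Selp, the adhesion molecule P-selectin of platelet granules, was at 6.76 and 21.2 CPM (12 of 341 and 32 of 202 members), and Timp3, a metalloproteinase inhibitor, at 5.26 and 31.8. F2rl2, the thrombin receptor PAR3, was at 5.26 and 26.1. In megakaryocyte cells the same list had 1 gene higher and 7 lower of 24, with a median of -0.17 (background 4.19% higher and 4.91% lower). In erythroid cells it had 8 of 10 higher (background 4.71%). Stem cells had 9 higher and 1 lower of 17, with a median of 0.60 (background 4.44% and 3.47%). Neutrophil progenitors had 1 higher and 1 lower of 10, with a median of 0.24 (background 2.05% and 2.41%). The rise was thus not particular to the members. Ppbp was at 0 in members of both groups and Clec1b in the PBS control. Of 11 erythroid membrane and enzyme genes none was higher and 3 were lower, namely Blvrb (225 and 106 CPM), Trib2 (130 and 23.9) and Atp1b2 (38.3 and 2.21). The list median of -0.12 was 0.21 when both groups were given the same make-up by erythroid and stem cell genes detected, and Car1 then had a log2 fold of 0.21 in place of -0.52. Haem synthesis and iron genes had a median of -0.02 over 21 genes, with Tfrc, the transferrin receptor, higher (45.4 and 73.4) and Ppox and Alas1 lower.

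The transcription factors of the lineage were close to even. Of 25 measured, 1 was higher past 1.5-fold and none lower (6.94% and 6.63% of all genes), and the median log2 fold was 0.00054. Gata1 was at 92.7 and 129 CPM (log2 0.48, 0.23 to 0.73), Zfpm1, the Gata1 partner FOG1, at 329 and 453 (0.46, 0.33 to 0.60) and Fli1 at 127 and 185 (0.55, 0.34 to 0.76). In erythroid cells Gata1 had a log2 fold of -0.16 and in megakaryocyte cells of -0.24. Cited2, a regulator of stem and progenitor survival, was at 148 and 298 CPM. Of the 3 further markers of the population, Apoe had a log2 fold of -1.05 (-1.11 to -0.99) and St8sia6 of -0.89 (-1.23 to -0.55), while F2r stayed under 1.5-fold at 0.32 (0.11 to 0.52). St8sia6 was at -0.25 when all cells were thinned to 3070 UMIs and members chosen anew, and at -0.51 with the same make-up of both groups, both under 1.5-fold. In the same members thinned to 3070 UMIs, it was found in 27.3% and 11.4%.

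In the sphingosine 1-phosphate pathway, to which Mfsd2b belongs, 1 of 15 genes was higher and 4 were lower past 1.5-fold, with a median of 0.03. Over all genes 6.94% were higher and 6.63% lower. The lower genes included the receptors S1pr1 (37.5 and 14.6 CPM) and S1pr4 (65.0 and 30.9), which guide cells towards sphingosine 1-phosphate in blood, and the phosphatase gene Sgpp1 (34.9 and 18.1). Cers6, a ceramide synthase, was at 15.4 and 27.8. Of 17 genes of thrombin receptors and their signalling, 2 were higher and 4 lower past 1.5-fold, with a median of -0.05. Among them, Gnaq was at 78.8 and 38.4 and Plcb3 at 14.6 and 28.7. Among 30 cytokine receptor genes 4 were higher and 5 lower. Csf2rb, the common beta chain of the IL-3, IL-5 and GM-CSF receptors, was at 18.8 and 63.2 CPM. Kit, the antigen of the sort and named here after its values were seen, was at 519 and 265 CPM (log2 -0.97, -1.11 to -0.83). The Kit log2 fold was -1.18 in erythroid and -0.95 in stem cells, and megakaryocyte cells had 325 and 162 CPM.

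Genes of DNA replication were higher in members of the B-ALL environment. Of 51 S phase genes, 50 had a log2 fold above 0, 17 were past 1.5-fold and none was lower past it, with a median of 0.48. The background over all genes was 6.94% higher and 6.63% lower. Rrm2, a subunit of ribonucleotide reductase, was at 48.1 and 119 CPM, Tk1 at 49.2 and 109, and Uhrf1 at 89.4 and 168. The median member had 0.404% of its UMIs in these genes in the PBS control and 0.770% in the B-ALL environment. The list median was 0.21 in erythroid, 0.10 in megakaryocyte and -0.01 in stem cells. Of 53 G2 and M phase genes 7 were higher and none lower, with a median of 0.37. Depth moved with this result: in members with fewer than 10000 UMIs, an alternative chosen after seeing the data, the S phase median was 0.41 but the G2 and M phase median was -0.12, and the log2 fold of Mki67 was -0.54 in place of 0.88. Among G1 regulators, Mycn was at 47.3 and 119 CPM, Cdkn1a at 11.3 and 26.1, Ccnd1 at 27.4 and 3.98, and Cdkn1b, the p27 inhibitor, at 154 and 84.4.

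**Figure D5:**
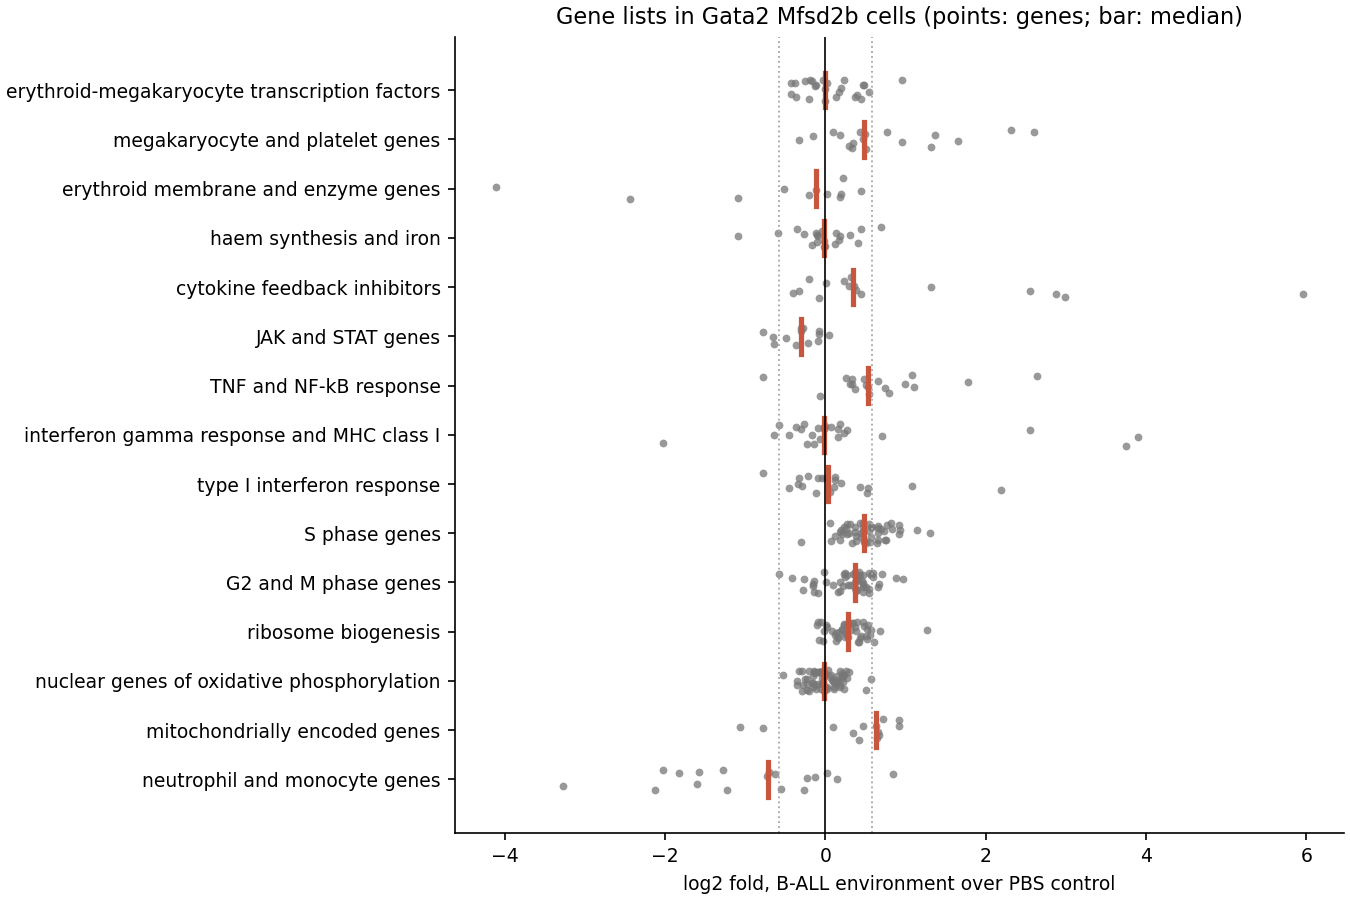
Log2 fold of each measured gene (points) and the median (bar) of 15 gene lists in the Gata2 Mfsd2b cells, B-ALL environment over PBS control, with dotted lines at 1.5-fold. S phase genes lie almost wholly above 0 (median 0.48), neutrophil and monocyte genes mostly below (median -0.72), and oxidative phosphorylation genes around 0 (median -0.02).

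Mitochondrially encoded transcripts were higher without their nuclear partners. Of 13 genes 7 were higher and 2 lower (6.94% and 6.63% of all genes), with a median of 0.63. mt-Cytb was at 3457 and 6554 CPM and mt-Co3 at 5403 and 10169, while mt-Atp8 and mt-Nd6 were lower. None of 67 nuclear oxidative phosphorylation genes was past 1.5-fold in either direction, with a median of -0.02. The mitochondrial list median was 0.45 in erythroid, 0.43 in megakaryocyte and 0.50 in stem cells. The share of mitochondrial UMIs is also used as a sign of cell stress or damage, and its part in the other results was not tested. Ribosome biogenesis genes (46 measured, 3 higher, none lower) had a median of 0.28, and their higher share was near that of all genes (6.94%). Cholesterol synthesis genes (21 measured, 4 higher, none lower) had a median of 0.33.

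Neutrophil and monocyte genes were mostly lower in members of the B-ALL environment. Of 18 neutrophil and monocyte genes 11 were lower past 1.5-fold and 1 was higher (Cebpb, 25.5 and 46.0 CPM). The background over all genes was 6.63% lower and 6.94% higher, and the list median was -0.72. Mpo, myeloperoxidase, named after its values were seen, was at 1185 and 389 CPM, Ctsg at 754 and 173, and F13a1 at 51.4 and 5.30. In the B-ALL environment 5 members held 58.3% of the Mpo UMIs. The 24 genes of the list in the matrix summed to 5601 and 3404 CPM, and Fcnb was at 0 in both groups. The median member had 1121 and 270 unscaled CPM in 6 granule genes (Elane, Mpo, Prtn3, Ctsg, Ms4a3, Fcnb), against 525 and 91.3 in erythroid cells, 853 and 215 in megakaryocyte cells and 2084 and 966 in stem cells. Neutrophil progenitors were 10.6% of PBS control cells and 5.82% in the B-ALL environment, and the part of free RNA in these values was not tested. The 12 lowest folds were of Ccr2, Ighm, Atp1b2, AY036118, F13a1, Tifab, Parm1, Dntt, Ccnd1, Anxa3, Ncf1 and Trib2. Ighm, the heavy chain of immunoglobulin M, had 100 UMIs and 3, Dntt, the lymphoid terminal transferase, 52 and 6, and Ccr2 56 and 1. Few cells carried Ccr2. Its log2 fold of -5.57 was 1.29 when cells were thinned before the rule was applied, the value that equal UMI counts give. In members under 10000 UMIs it was -0.45. In these settings Ighm, at -4.82, was at -1.21 and -1.80, and Dntt, at -2.88, was at -2.52 and -1.18. Tifab, at -3.27, came to -0.17 in the alternative nearest to 0. The 6 B cell genes in the matrix summed to 70.6 and 31.8 CPM, with Igll1 and Blnk at 0 in both groups. AY036118 was at 882 and 68.9 CPM (log2 -3.68) and was lower in each other population as well, with log2 folds of -2.92 in erythroid, -3.13 in megakaryocyte and -2.88 in stem cells and -1.95 in neutrophil progenitors.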

How the data were processed

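Host bone marrow cells were profiled by droplet RNA sequencing in a PBS control and a B-ALL environment. The deposited matrix holds UMI counts of 13978 genes in 11764 cells, unnormalized. Cell Ranger 4, Seurat 4.0.1 and mm10 are named per the submitters' processing notes. How cells and genes were filtered, and whether counting used strand, is not given in the sources used here. The cell prefix tm was taken to stand for the tumor environment, and cells could not be assigned to the labelled samples. The fit across samples planned for this design was therefore not run, and sums over the cells of a group were compared.

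The members and gene lists were chosen with earlier results of these data known. UMIs were summed per population and group and scaled to CPM with TMM factors (edgeR 4.0.16, R 4.3.3). Only genes averaging 10 CPM or more over both sums were compared, and those past 1.5-fold were counted by size alone. Intervals are exact (Poisson, Clopper-Pearson, or conditional for ratios; scipy 1.17.1). A group with 0 UMIs was set to 3 UMIs over the group. No doublet caller was run; instead, the 5% of members with the most UMIs were left out as an alternative. The scripts were tested on simulated data. Other alternatives were total-count and DESeq2 1.42.0 scaling, other filters on genes and cells, thinning to 3070 UMIs, other limits in the rule and an equal make-up of both groups.

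Named genes were the rule genes and further markers, the 12 highest and 12 lowest folds between groups, up to 4 genes per list with the largest folds, and the 12 highest and 8 lowest genes against the compared populations. Kit, Itga2b, Mpo, Pim1, Tnfaip2, Cebpb, Cd34, Cpa3 and the marker genes given at or near 0 were named after their values were seen. Promoter sequences are from RefSeq on GRCm38.p6, and positions are from the same assembly. Some genes of these lists enter the counts and medians but are not reported here by name.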

Additional observations from a re-analysis of the deposited data

How the results depend on the processing

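No paired analysis was possible because the cells carry a group and no sample number. For the same reason leaving out each replicate and the replicate block were not run. Each group is 1 sample, so variation between mice is unknown, and depth limits what can be seen in genes of few UMIs. The alternatives with members under 10000 UMIs and with a first map coordinate over 2 were chosen after seeing the data. Where values moved, the cause was not tested unless fewer genes or cells entered.

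The ratio of shares, 0.612, was 0.422 with thinned cells, 0.861 with a minimum of 5000 UMIs, 0.760 with fewer than 2 erythroid and fewer than 2 stem cell genes and 0.390 with no limit on them. The counts of 606 higher and 579 lower genes were 1202 and 1217 with no filter beyond 10 UMIs, 167 and 123 at 50 CPM or more, 1065 and 1142 with thinned cells, and 1025 and 918 with Gata2 and Mfsd2b at 2 UMIs or more. With fewer than 2 erythroid and stem cell genes, 911 were higher. Against the compared populations, total-count scaling gave 630 genes lower than in PBS control erythroid cells and 298 higher than in stem cells of the B-ALL environment. Thinned cells gave 1889 higher and 1832 lower against erythroid cells of the B-ALL environment. Against megakaryocyte cells they gave 1151 and 1106 in the PBS control and 1278 and 1283 in the B-ALL environment, and against stem cells 1611 and 1603, and 1222 and 1745.

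Over 142 named genes and 1562 alternative values, 46 values, of 25 genes, had the other sign, and 11 of them were of genes past 1.5-fold. Over 35 list medians and 385 values, 61 had the other sign, many from medians near 0, and 11 were of medians over 0.1 in size. Of 111 named genes past 1.5-fold, 45 were under it or of the other sign in at least 1 alternative, among them Ppox, Tfrc, Alas1, Cers6, Stat5b, Tyk2, mt-Atp8 and mt-Nd6. Those that turned sign from past 1.5-fold, or from a median over 0.1 in size, were as follows. With thinned cells they were the log2 folds of Ccr2 (1.29), St8sia4 (0.015), Il6ra (0.29) and Flt3 (0.12), and the medians of cytokine receptors (0.063), ribosome biogenesis (-0.013), p53 targets (-0.18), lymphoid genes (0.016) and dendritic cell genes (0.043). With Gata2 and Mfsd2b at 2 UMIs or more they were St3gal2 (-0.026) and the cytokine receptor median (0.10). With fewer than 2 erythroid and stem cell genes they were Hbb-bt (-0.44), Sgpp1 (0.082), Itgb7 (0.39) and the basophil and mast cell median (0.028). The erythroid membrane median was 0.21 with the same make-up. In members under 10000 UMIs they were Mki67 (-0.54), Kif11 (-0.014), Hdc (0.060) and the medians of G2 and M phase (-0.12), p53 targets (-0.032) and basophil and mast cell genes (0.14).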
